A study of Ambystoma mexicanum with 6 samples.

Results

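The Hedgehog pathway is covered here by 9 genes, SHH, PTCH1, SMO, SUFU, GLI1, GLI2, GLI3, HHIP and GAS1, measured in AL1, a line of cultured fibroblasts from the axolotl (Ambystoma mexicanum). They were chosen by name as core components of the pathway and were looked up by gene symbol among 99126 gene models. All 9 symbols were found, and where several models carried a symbol the model with the highest mean count was used. In 3 wild-type samples, here called treated, cells were given etoposide (10 µM) together with nutlin-3a (1 µM) for 24 h and then nutlin-3a alone (1 µM) for 11 days, a regime that induces senescence, a lasting stop of cell division. In the other 3 wild-type samples, here called DMSO, cells received the solvent and were passaged through the 12 days so that they kept dividing. All 6 samples were harvested at day 14 and all come from the same cell line. Etoposide traps topoisomerase II on broken DNA, and nutlin-3a blocks the binding of MDM2 to p53. Because each treated sample had all of these at once, drug exposure, senescence and the stop of division cannot be told apart. Whether the samples of a group were separate cultures is not given in the labels. The p-values hence cover no more than the spread among the 6 libraries, and that spread may be technical.

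Hedgehog ligands are secreted proteins that bind the receptor Patched. Without ligand, Patched holds the membrane protein Smoothened inactive, SUFU retains the GLI transcription factors in the cytoplasm, and GLI3 in particular is cut into a repressor. With ligand, Smoothened gathers in the primary cilium and full-length GLI proteins switch on target genes, among them GLI1, PTCH1 and HHIP. In limbs of vertebrates SHH is made at the posterior margin and patterns the digits, and in the axolotl it is again made in the posterior part of a regenerating limb.

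Library totals ran from 33083856 to 46686876 counts in treated and from 28604727 to 33633869 counts in DMSO libraries. CDKN1A, the gene of the cell cycle inhibitor p21, averaged 41.6 ± 2.29 CPM (counts per 1000000 library counts, the totals scaled by TMM) in treated cells and 7.42 ± 2.10 CPM in DMSO cells (SD, n = 3 each), and CCNB1, the cyclin B1 gene, averaged 3.41 ± 0.540 CPM in treated cells and 27.2 ± 1.85 CPM in DMSO cells. Treated and DMSO libraries were split by principal component 1, with 76.1% of the variance, and treated replicate 2 lay apart from the other treated libraries on principal component 2, with 9.55%. Of 15 fibroblast markers 14 were found. Their summed level was 7698 to 9419 CPM in treated and 7244 to 7497 CPM in DMSO libraries, most of it from VIM, and COL1A1, COL1A2, COL3A1, FN1 and PDGFRB had reads in every library, while DCN, THY1 and COL5A1 had at most 3 counts and FBN1 had 0. By the edgeR test given below, 8 of these markers were tested. COL1A1, COL1A2 and FN1 were lower in treated cells, 0 were higher and 5, VIM among them, did not pass. Over all models tested 26.8% were lower. Markers of leukocytes summed to at most 0.157 CPM in any library, and PTPRC and SPI1 were at 0. Of 7 epithelial markers 4 were found, EPCAM was at 0 and CDH1 had at most 6 counts, and KRT18 made up nearly all of their summed 933 to 1147 CPM in treated and 1294 to 1417 CPM in DMSO libraries.

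Enough reads for a test were found for SMO, SUFU, GAS1, GLI2 and GLI3. Few or none were found for the ligand gene SHH and the best known target genes GLI1, HHIP and PTCH1, the last also the receptor gene. In treated cells GLI3 was at 18.2% of its DMSO level, and GLI2 and SMO were lower as well. SUFU and GAS1 did not pass the test. SHH, GLI1 and HHIP had 0 counts in all 6 libraries, and PTCH1 had 25 counts in all. Of the 9 genes, 5 had enough reads to be tested, 3 of these were lower in treated cells and 0 were higher by edgeR's quasi-likelihood test at a Benjamini-Hochberg adjusted p below 0.05. Of all 17424 gene models tested, 26.8% were lower, 25.5% were higher and 52.3% changed in either direction, so a change by itself does not set a gene apart here. The median log2 fold change of the 5 tested genes was −0.78, against −0.03 over all models tested. By level alone, 4 of the 5 tested genes had every treated library below every DMSO library and GAS1 had every treated library above. Of all tested models 31.4% were separate in the first way, 28.8% in the other and 60.2% in either. The number of genes called lower dropped to 1, GLI3, when treated replicate 2 or DMSO replicate 1 was left out. Fewer cells that express a gene and less RNA per cell cannot be told apart in bulk samples.

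SHH encodes Sonic hedgehog, the main Hedgehog ligand of the limb. Its model on chromosome 2p (687768568 to 687801925, minus strand, AmexG_v6_DD assembly) had 0 of 122648000 counts in treated libraries and 0 of 91789728 counts in DMSO libraries. A count of 0 allows up to 3 counts in a library, which equals 0.0671 to 0.116 CPM in treated and 0.0755 to 0.0952 CPM in DMSO libraries on the scaled totals. The RefSeq annotation of another assembly, UKY_AmexF1_1, places SHH on 2q, not 2p, and the models of the 2 annotations were not matched. SHH RNA was not detectable at this depth in either group. The other ligand genes were close to this limit too. IHH, the Indian hedgehog gene, had 0, 1 and 0 counts in treated libraries and 0 in each DMSO library, and DHH, the Desert hedgehog gene, had 0, 3 and 0 counts in treated and 1, 0 and 0 counts in DMSO libraries.

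Genes that release the ligand were measured in cells with no detectable SHH. SCUBE3, whose family of secreted proteins helps to bring lipid-bearing ligand off the producing cell, had 43.2, 33.8 and 37.3 CPM in treated cells and 8.71, 9.03 and 10.2 CPM in DMSO cells. Every treated library lay above every DMSO library. SCUBE3 rose by 2.04 on the log2 scale (SE 0.14, edgeR adjusted p = 7.04e-08). DISP1, the gene of the transporter Dispatched that exports the ligand, had 5.26, 2.29 and 5.26 CPM in treated and 3.60, 2.03 and 2.44 CPM in DMSO cells, so the groups overlapped (log2 fold change 0.68, edgeR adjusted p = 0.0708). SCUBE1, SCUBE2 and DISP2 had too few reads to be tested. Of the 10 ligand and release genes listed, 8 were found and 2 were tested, of which SCUBE3 was called higher. Over all models tested 25.5% were called higher.

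PTCH1 encodes Patched 1, at the same time the ligand's receptor and a target of the pathway. Its model lies on chromosome 6p (1035956180 to 1036111056, plus strand) and has 28 exons. PTCH1 had 1, 3 and 1 counts in treated libraries and 4, 14 and 2 counts in DMSO libraries. The groups overlapped, and 14 of the 20 DMSO counts came from DMSO replicate 2. Over summed counts and raw library totals, without TMM scaling, the treated level was 0.187 times the DMSO level. On raw totals the median log2 fold change of all tested models was −0.40, against −0.03 with TMM. The exact 95% interval of the PTCH1 ratio, 0.0549 to 0.514, covers counting error only. Without DMSO replicate 2 the ratio was 0.423, with an interval of 0.102 to 1.66, so the difference rests on that library. PTCH1 did not reach the minimum for the test. When that minimum was dropped its log2 fold change was −1.97 (SE 0.95, edgeR adjusted p = 0.114).

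HHIP, which encodes a membrane protein that binds and sequesters ligand and is itself a target gene, lies on chromosome 6q (683840948 to 684110716, minus strand). It had 0 counts in every library, although its exons add up to 13545 bases, the longest of the 9 genes.

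SMO encodes Smoothened, the membrane protein that passes the signal into the cell. Its model lies on chromosome 12q (673128591 to 673339345, plus strand) and overlaps another model on the opposite strand that had 0 counts. SMO had 4.61, 2.02 and 1.96 CPM in treated cells and 6.64, 4.84 and 5.08 CPM in DMSO cells. The highest treated library, replicate 1, came close to the lowest DMSO library without reaching it. SMO fell by 0.92 on the log2 scale (SE 0.29, 95% interval −1.55 to −0.30, edgeR adjusted p = 0.0161). The call was lost without treated replicate 2 (−0.74, edgeR adjusted p = 0.0544), without treated replicate 3 (−0.70, edgeR adjusted p = 0.0797) and without DMSO replicate 1 (−0.77, edgeR adjusted p = 0.0855), and the difference was larger without treated replicate 1 (−1.47).

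GAS1 encodes a membrane-anchored co-receptor that helps Patched to bind ligand, and it is known from mammals as a gene raised in growth-arrested fibroblasts. The table describes the symbol by an unrelated fungal enzyme of the same name. The model used here lies on chromosome 6p (1049034856 to 1049219944, plus strand), the arm that also holds PTCH1. In the RefSeq annotation of the UKY_AmexF1_1 assembly GAS1 and PTCH1 are also on 6p, with 6 coding genes between them, but the models of the 2 annotations were not matched, so the identity of this model rests on its symbol. The model used has 2 exons over a span of 185089 bases. A pair of further models named GAS1, with 1 exon each, had 16 and 5 counts over all libraries.

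GAS1 had 7.27, 5.24 and 7.32 CPM in treated cells and 4.98, 5.11 and 5.08 CPM in DMSO cells. The DMSO libraries were nearly equal, and treated replicate 2 lay just above them while the other treated libraries were clearly higher. The log2 fold change of 0.39 did not pass (SE 0.18, 95% interval 0.02 to 0.77, edgeR adjusted p = 0.0747). It passed without treated replicate 2 (0.54, edgeR adjusted p = 0.0105) and with upper-quartile scaling (0.48, edgeR adjusted p = 0.0314), and it was 0.04 with library size only.

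CDON and BOC, further co-receptors for Hedgehog ligands, fell. CDON, a cell-surface protein of the immunoglobulin family that binds ligand together with Patched, had 2.17, 1.59 and 1.60 CPM in treated and 3.45, 4.30 and 4.38 CPM in DMSO cells. CDON fell by 1.16 on the log2 scale (SE 0.22, edgeR adjusted p = 0.000512). BOC, its close relative, had 1.37, 0.659 and 0.619 CPM in treated and 2.62, 1.88 and 1.87 CPM in DMSO cells, and fell by 1.24 (SE 0.32, edgeR adjusted p = 0.00535). In both genes the groups were separate. LRP2, a large endocytic receptor that can take up SHH, rose by 0.67 (SE 0.23, edgeR adjusted p = 0.0240), a call lost without treated replicate 2 (0.52), DMSO replicate 2 (0.63) or DMSO replicate 3 (0.62), without the low-count filter (0.62) and with library size only (0.28). Of 11 receptor and co-receptor genes listed, 7 were tested, 3 fell and 1 rose, against 26.8% lower and 25.5% higher over all models. Their median log2 fold change was 0.15. Of the 7, 1 gene that was not called reached the minimum for testing only through its treated libraries. The median is hence partly fixed by that minimum. The median was −0.22 with library size only, −0.36 after thinning to equal depth and −0.39 for genes with a mean CPM of at least 1.

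**Figure D1:**
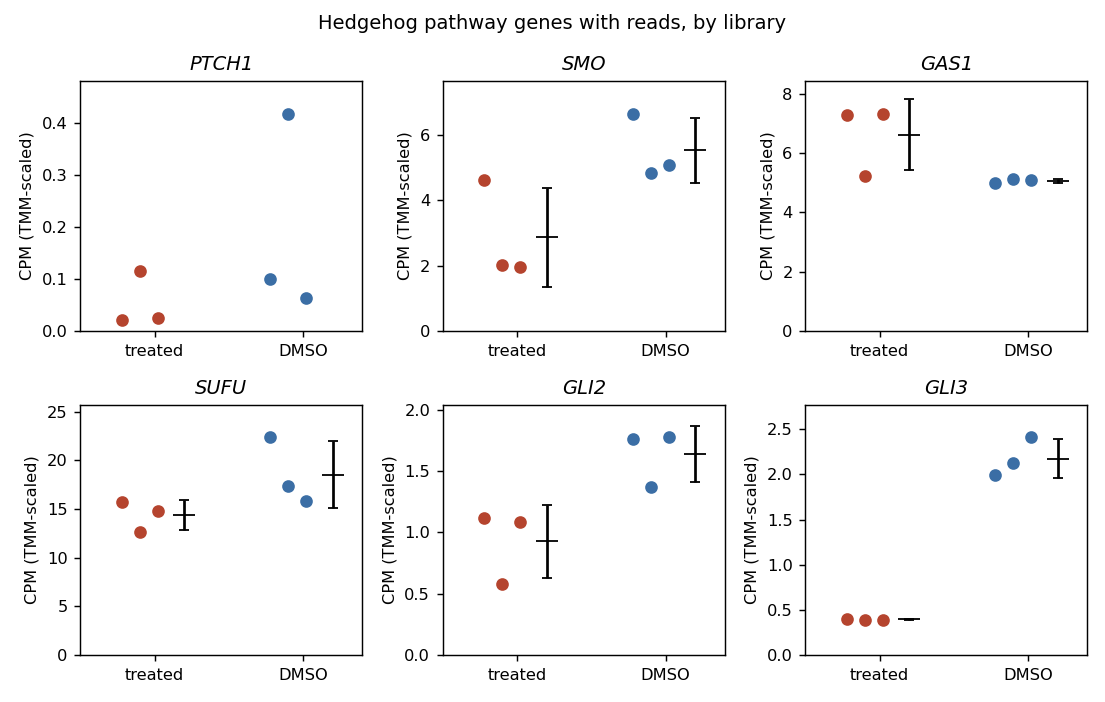
TMM-scaled CPM of 6 Hedgehog genes in each library, treated at the left of each panel and DMSO at the right. Points are libraries, and bars are the mean ± SD of 3 libraries (not drawn for PTCH1, which had 1 to 14 counts per library). GLI3 shows 3 treated libraries at 0.387 to 0.403 CPM, on 10 to 18 counts each, far below the DMSO libraries at 1.99 to 2.41 CPM. In PTCH1 the groups overlap.

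SUFU encodes the inhibitor that binds GLI proteins in the cytoplasm. It lies on chromosome 8q (671151711 to 672170310, plus strand), and its model spans 1018600 bases for 4740 bases of exon. SUFU had 15.7, 12.6 and 14.8 CPM in treated cells and 22.4, 17.4 and 15.8 CPM in DMSO cells. The groups were separate only by the narrow gap between treated replicate 1 and DMSO replicate 3. The log2 fold change of −0.36 did not pass (SE 0.15, 95% interval −0.69 to −0.03, edgeR adjusted p = 0.0605). It passed with library size only (−0.73, edgeR adjusted p = 0.0120), without the low-count filter (−0.41, edgeR adjusted p = 0.0324), after thinning (−0.40, edgeR adjusted p = 0.0468), without treated replicate 1 (−0.43, edgeR adjusted p = 0.0493) and without DMSO replicate 3 (−0.47, edgeR adjusted p = 0.0359). It was lower in treated cells in every setting run.

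Other cytoplasmic and ciliary transducers moved in both directions. Of 23 genes listed 18 were tested, 4 rose, 5 fell and 9 did not pass, with a median log2 fold change of −0.27. These shares are near those over all models, 25.5% higher and 26.8% lower. EVC2, a protein of the ciliary base that carries the signal of Smoothened, fell to 2.28 ± 0.598 CPM in treated cells, against 5.32 ± 1.34 CPM in DMSO cells (SD, n = 3 each, log2 fold change −1.21, edgeR adjusted p = 0.000920), while its partner EVC had 4.46 ± 0.245 CPM in treated and 5.06 ± 0.181 CPM in DMSO cells (edgeR adjusted p = 0.382). GRK2, a kinase that phosphorylates Smoothened, fell by 0.90 on the log2 scale and CSNK1A1, a casein kinase that phosphorylates both Smoothened and GLI proteins, fell by 0.64. GSK3B, another kinase of the GLI proteins, averaged 4.41 ± 0.767 CPM in treated and 6.53 ± 0.708 CPM in DMSO cells and fell by 0.55 (edgeR adjusted p = 0.0205).

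The 4 transducers that rose were PRKACB, TULP3, MGRN1 and ULK3. PRKACB, a catalytic subunit of protein kinase A, which marks GLI proteins for processing, averaged 72.9 ± 1.21 CPM in treated and 46.0 ± 8.76 CPM in DMSO cells (log2 fold change 0.66, edgeR adjusted p = 0.000958). TULP3, which brings the inhibitory receptor GPR161 into the cilium, averaged 15.2 ± 1.19 CPM in treated and 9.15 ± 0.895 CPM in DMSO cells (log2 fold change 0.73, edgeR adjusted p = 0.000737). MGRN1, part of a ubiquitin ligase that removes Smoothened from the surface, rose by 0.75 and ULK3, a kinase that acts on GLI proteins and binds SUFU, by 0.62. With library size only the calls of PRKACB, TULP3 and MGRN1 were lost (0.29, 0.36 and 0.39), and of the transducers 0 were then higher and 10 lower. KIF7, a ciliary kinesin that binds GLI proteins, had 43, 19 and 12 counts in treated and 82, 44 and 22 counts in DMSO libraries, with groups that overlapped (log2 fold change −1.03, edgeR adjusted p = 0.0624).

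**Figure D2:**
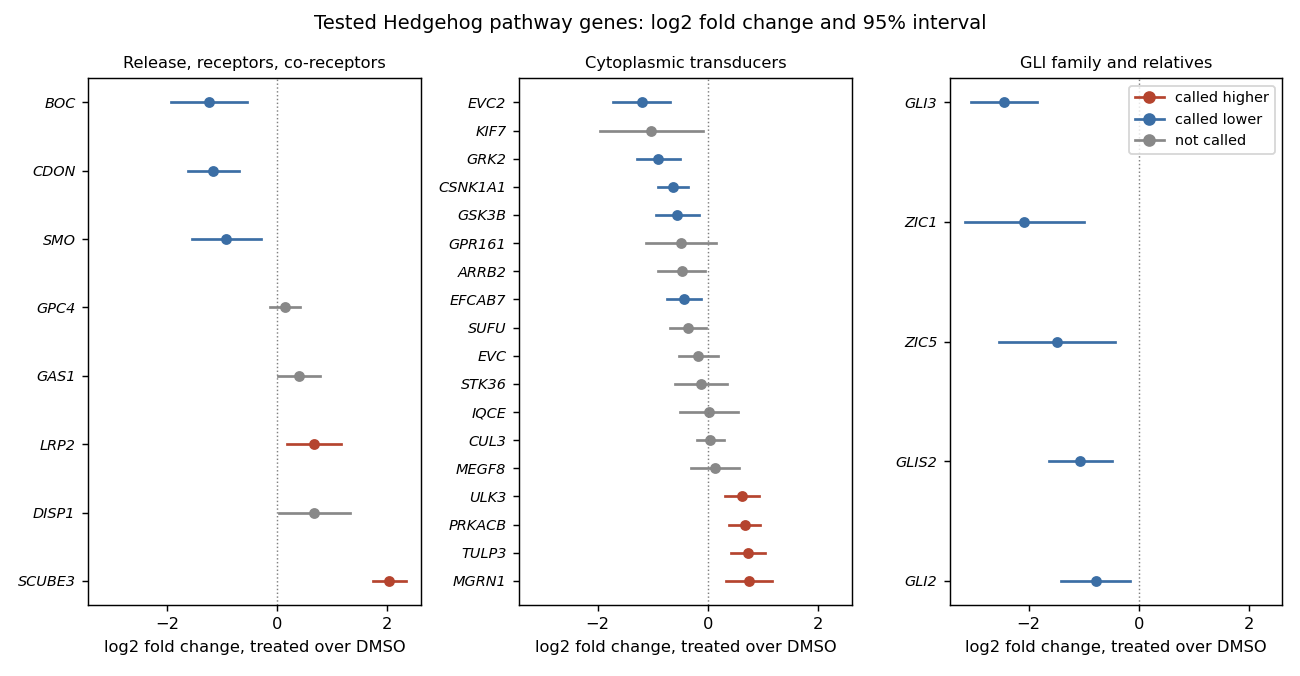
Log2 fold change of treated over DMSO (x axis) with its 95% interval for 8 tested genes of the release and receptor lists (left), and for each tested gene of the cytoplasmic transducers (middle) and the GLI family with its relatives (right). Colours mark genes called higher, called lower or not called by edgeR. BOC, CDON and SMO lie left of 0, SCUBE3 lies far right at 2.04, and all 5 tested genes of the GLI family list lie left of 0. Of the GLI family list, ZIC1 and ZIC5 reached the minimum for testing only through their DMSO libraries.

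GLI1, the GLI gene that in vertebrates depends most on active Hedgehog signalling, lies on chromosome 3q (510978476 to 511271272, plus strand). It had 0 counts in each of the 6 libraries over 8084 bases of exon. At this depth GLI1 RNA was not detectable in treated or in DMSO cells, with the same upper limits as for SHH.

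GLI2 is the main activator among the GLI proteins. Its model on chromosome 9q (801891681 to 802873747, minus strand) had 50, 15 and 42 counts in treated libraries and 70, 46 and 56 counts in DMSO libraries. These equal 1.12, 0.582 and 1.08 CPM in treated cells and 1.76, 1.37 and 1.78 CPM in DMSO cells. All treated libraries were lower, and treated replicate 2 was the lowest. GLI2 fell by 0.78 on the log2 scale (SE 0.29, 95% interval −1.41 to −0.16, edgeR adjusted p = 0.0368). The call was lost without treated replicate 2 (−0.56, edgeR adjusted p = 0.0949), without DMSO replicate 1 (−0.73, edgeR adjusted p = 0.106) and without DMSO replicate 3 (−0.74, edgeR adjusted p = 0.0998). It was also lost with DESeq2 (−0.76, adjusted p = 0.0559), with upper-quartile scaling (−0.70, edgeR adjusted p = 0.0587) and with the length trend removed (−0.73, edgeR adjusted p = 0.0512).

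GLI3 is the main source of GLI repressor and limits digit number in the limb of mammals. Its model on chromosome 5p (805924659 to 806425646, minus strand) had 18, 10 and 15 counts in treated libraries and 79, 71 and 76 counts in DMSO libraries. These equal 0.403, 0.388 and 0.387 CPM in treated cells and 1.99, 2.12 and 2.41 CPM in DMSO cells. In CPM the treated libraries were almost equal and lay far below the DMSO libraries, and both groups reached the minimum for testing. The treated values rest on 10 to 18 counts and on the scaling of totals, with a factor of 0.780 for treated replicate 2. Their closeness is hence no measure of the spread of GLI3. GLI3 fell by 2.45 on the log2 scale (SE 0.28, 95% interval −3.05 to −1.86, edgeR adjusted p = 8.25e-06). Over all 16 alternatives its log2 fold change stayed between −2.81 and −2.37, with adjusted p of at most 0.000106. The summed level of 6 proliferation markers moved with it, at 83.0 to 85.3 CPM in treated and 393 to 419 CPM in DMSO libraries, and all 6 of these fell. Their part in the result was not tested.

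The balance of GLI3 to GLI2 does not depend on how libraries are scaled. In treated libraries the GLI3 count was 0.360, 0.667 and 0.357 times the GLI2 count, and in DMSO libraries it was 1.13, 1.54 and 1.36 times the GLI2 count. GLI2 reads outnumbered GLI3 reads in every treated library, and GLI3 reads outnumbered GLI2 reads in every DMSO library. The log2 ratio averaged −1.16 ± 0.51 in treated and 0.41 ± 0.22 in DMSO libraries (SD, n = 3 each), a difference of −1.57 with an exact two-sided permutation p of 0.1, the smallest that 3 libraries against 3 can give.

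**Figure D3:**
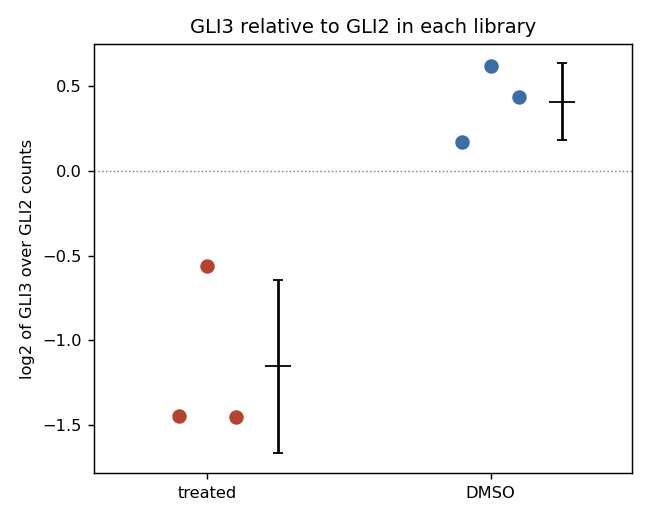
Log2 of the GLI3 count over the GLI2 count, with 0.5 added to each (y axis), in treated libraries at the left and DMSO libraries at the right. Points are libraries and bars the mean ± SD of 3. The treated libraries lie between −1.46 and −0.56 and the DMSO libraries between 0.17 and 0.62, on opposite sides of 0.

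Relatives of the GLI genes with the same kind of zinc fingers fell too. ZIC1 had 20, 1 and 7 counts in treated and 34, 39 and 35 counts in DMSO libraries, and fell by 2.08 on the log2 scale (SE 0.50, edgeR adjusted p = 0.00338). Its log2 fold change was −3.05 without treated replicate 1. ZIC5 had 17, 20 and 4 counts in treated and 51, 38 and 28 counts in DMSO libraries (log2 fold change −1.48, edgeR adjusted p = 0.0204), a call lost without treated replicate 3 (−1.0), DMSO replicate 1 (−1.35) or DMSO replicate 2 (−1.46), and its value was −2.14 without treated replicate 2. GLIS2 averaged 1.55 ± 0.614 CPM in treated and 3.27 ± 0.316 CPM in DMSO cells and fell by 1.06 (edgeR adjusted p = 0.00470). The treated libraries of ZIC1 and ZIC5 were uneven. Of 12 genes in this list 9 were found and 5 tested, and all 5, GLI2 and GLI3 among them, were called lower. Over all models tested 26.8% were called lower. ZIC1 and ZIC5 reached the minimum for testing only through their DMSO libraries, where they are high, so the count of 5 is partly fixed by that minimum. The number was 3 without DMSO replicate 1. It was also 3 for genes with a mean CPM of at least 1, a level that ZIC1 and ZIC5 do not reach. The median log2 fold change of the list, −1.48, is the value of ZIC5, so it is also partly fixed by the minimum for testing. Dropping the low-count filter gave −1.12, and keeping only genes that reach the mean CPM just named gave −1.06. Leaving out treated replicate 3 gave −0.95.

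Levels of different genes were compared per length, as CPM divided by the kilobases of exon (RPKM). SUFU was highest in both groups, at 3.03 ± 0.330 RPKM in treated and 3.91 ± 0.718 RPKM in DMSO cells, followed by GAS1 at 2.65 ± 0.478 RPKM in treated and 2.03 ± 0.0265 RPKM in DMSO cells (SD, n = 3 each). The ranges of SUFU and GAS1 overlapped in treated libraries and were separate in DMSO libraries. SMO followed at 0.369 ± 0.195 RPKM in treated and 0.711 ± 0.126 RPKM in DMSO cells. In treated cells GLI2 came next at 0.109 ± 0.0353 RPKM, above GLI3 at 0.0502 ± 0.00115 RPKM. In DMSO cells the order was the other way round, with GLI3 at 0.278 ± 0.0276 RPKM above GLI2 at 0.192 ± 0.0267 RPKM, and in each group the 3 libraries of these genes did not overlap. PTCH1 was the lowest with reads, at 0.00717 ± 0.00697 RPKM in treated and 0.0254 ± 0.0255 RPKM in DMSO cells. By mean RPKM over all 6 libraries, 65.7% of tested models lay below SUFU, 59.3% below GAS1, 31.6% below SMO, 12.7% below GLI3 and 11.6% below GLI2.

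**Figure D4:**
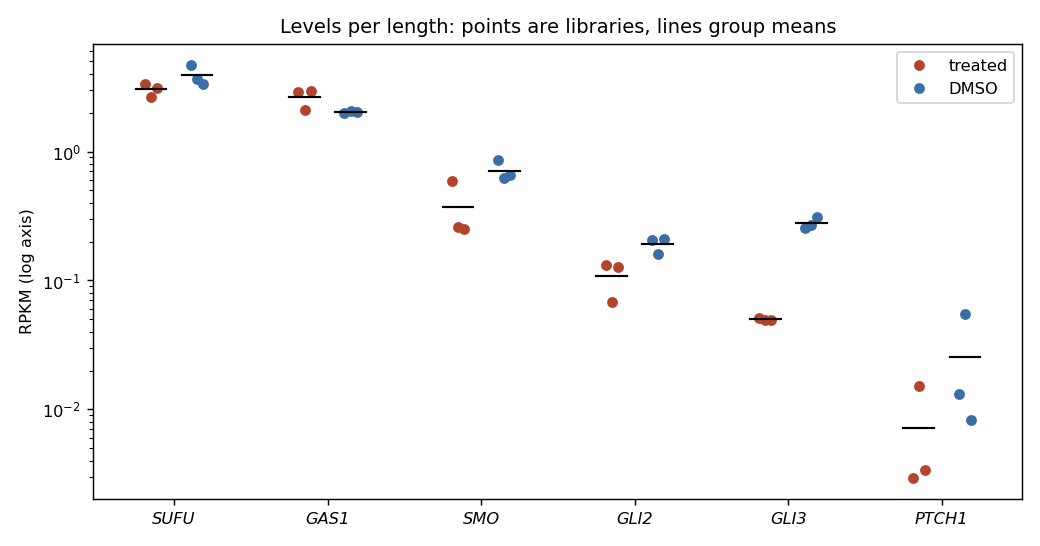
Level per length in RPKM (log axis) of the 6 Hedgehog genes with reads, treated left of DMSO for each gene. Points are libraries and lines group means. SUFU and GAS1 lie at 2.0 RPKM or above in every library, PTCH1 at 0.0547 RPKM or below, and GLI3 is below GLI2 in treated and above it in DMSO libraries.

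The gene models whose levels over the 6 libraries were most like those of each changed gene were looked up among 11273 tested models with a gene name. For GLI3 they were CCNB3, DIAPH3 and ANP32E, at a distance of 0.14, 0.14 and 0.16 log2 units and with a Pearson r of 0.999 each over 6 libraries. For GLI2 they were CELSR1, HAPLN3.L and PCF11, at 0.14, 0.16 and 0.17 log2 units. For SMO the nearest were REST, SOX8 and STX2, at 0.30, 0.33 and 0.33 log2 units. All of these follow the split between the groups, which most of the variance follows, and those of SMO share its higher value in treated replicate 1. The models were picked by closeness in these same libraries, so the small distances and high r follow from the choice.

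Genes known in vertebrates as targets of GLI proteins moved in both directions. Of 32 listed, 26 were found and 15 tested, of which 4 rose, 8 fell and 3 did not pass, with a median log2 fold change of −0.62. Over all models 25.5% rose and 26.8% fell. Leaving out replicate 2 of the treated libraries gave a median of −0.33, and leaving out replicate 2 of the DMSO libraries gave −0.36. The median was −0.38 for genes with a mean CPM of at least 1 and −0.98 with library size only. Of the 15, 2 reached the minimum for testing only through DMSO libraries and 1 only through treated libraries, so the median is partly fixed by that minimum. The targets most specific to the pathway, GLI1, HHIP and PTCH1, were too low to be among the 15 tested. Many of the other targets answer to further pathways. FOXM1, a transcription factor of dividing cells, fell to 3.05 ± 0.230 CPM in treated cells, against 20.9 ± 2.67 CPM in DMSO cells. RAB34, a small GTPase needed to build cilia, was at 58.5 ± 9.02 CPM in treated and 171 ± 5.89 CPM in DMSO cells (log2 fold change −1.55). It is named here after its values were seen, as are TBX2 and HOXD13 below.

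MYCN, a growth-promoting transcription factor, had 1, 0 and 1 counts in treated and 12, 10 and 19 counts in DMSO libraries (edgeR adjusted p = 0.000394). Its pooled ratio on raw totals, without TMM scaling, was 0.0365, with an exact 95% interval of 0.00428 to 0.141 that covers counting error only. FOXD1, a forkhead factor, fell by 1.65 on the log2 scale. MYCN and FOXD1 reached the minimum for testing only through their DMSO libraries, so of the 8 targets called lower 6 were tested on reads of both groups. CCND1, the cyclin D1 gene, rose to 209 ± 14.5 CPM in treated cells, against 92.0 ± 10.7 CPM in DMSO cells (log2 fold change 1.19, edgeR adjusted p = 3.55e-06). IGF2, a growth factor gene, rose by 1.68, and HSD11B2, a steroid-converting enzyme gene, by 0.81, a call lost with library size only (0.44) and when DMSO replicate 1 (0.68) or 3 (0.81) was left out. In each of these settings 2 targets rose. Among genes with a mean CPM of at least 1, a level that MYCN and FOXD1 do not reach, 5 targets fell. FOXM1, MYCN and CCND1 are also genes of the cell cycle. The 6 proliferation markers given above fell, as FOXM1 and MYCN did, while CCND1 rose. The part of cell division in these changes was not tested.

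Genes that exchange signals with SHH in the limb bud ran from undetected to levels well above the minimum for testing. Those found summed to 54.5 to 59.9 CPM in treated and 78.0 to 82.0 CPM in DMSO libraries. GREM1 and FGF4 had 0 counts in every library, FGF8 had 0 in treated and 3, 0 and 0 in DMSO libraries, and HAND2, a factor that switches on SHH, had 4, 8 and 10 counts in treated and 8, 11 and 10 counts in DMSO libraries. Of 21 genes listed, 19 were found and 10 tested, of which 6 fell and 1 rose (median log2 fold change −1.04), and 3 fell without treated replicate 3. The median was −0.54 without the low-count filter and −0.59 for genes with a mean CPM of at least 1, of which 4 fell. Over all models tested 26.8% fell and 25.5% rose. IRX3, a homeobox gene of the proximal and anterior limb, had 24, 1 and 12 counts in treated and 74, 77 and 66 counts in DMSO libraries and fell by 2.67 on the log2 scale (edgeR adjusted p = 0.000181), with a value of −3.37 without treated replicate 1. TBX3 and TBX2, T-box factors of the limb margins, fell by 1.07 and 1.03. HOXA13, a factor of the most distal limb, fell by 1.56, a call lost without treated replicate 3 (−1.44) and without DMSO replicate 2 (−1.25), and HOXD13 fell by 1.05. IRX3, HOXA13 and 1 further limb gene that was not called reached the minimum for testing only through their DMSO libraries. The count of 6 that fell and the median of the list are hence partly fixed by that minimum. FGF9, a fibroblast growth factor gene, rose by 1.23 (edgeR adjusted p = 0.00339).

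The primary cilium, in which the signal is passed on, had its genes expressed in both groups. All 37 cilium and transport genes found, of 40 listed, had enough reads to be tested. Of these 10 rose, 6 fell and 21 did not pass, with a median log2 fold change of −0.04, against 25.5% higher and 26.8% lower over all models. The counts show nothing particular to cilium genes. BBS2, of the complex that carries membrane proteins into and out of the cilium, fell to 19.7 ± 1.97 CPM in treated cells, against 35.6 ± 0.950 CPM in DMSO cells (log2 fold change −0.85, edgeR adjusted p = 5.55e-05). WDR35, of the retrograde transport complex, fell by 1.02 and B9D1, of the gate at the base of the cilium, by 0.78.

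CC2D2A, another gene of that gate, which reached the minimum for testing only through its treated libraries, rose by 1.05, a call lost in 9 of 15 alternatives, DESeq2 among them (1.09, adjusted p = 0.0761). It was lost without treated replicate 1 (0.98) or 3 (1.01) and without DMSO replicate 1 (1.21), 2 (0.92) or 3 (1.02). DYNC2H1, the motor of retrograde transport, rose by 0.93 and WDR19, of the retrograde complex, by 0.85, and these calls were lost in 6 and 7 of 16 alternatives. DYNC2H1 was lost without treated replicate 2 (0.81) or 3 (0.72) and without DMSO replicate 2 (0.76) or 3 (0.91), and its groups overlapped. WDR19 was lost without treated replicate 2 (0.81) or 3 (0.75) and without DMSO replicate 2 (0.65) or 3 (0.75). It gave 0.42 when both models with its name were summed. The number of cilium genes that rose was 0 with library size only, and 11 fell in that setting. It was 6 without treated replicate 3, 3 without DMSO replicate 2 and 6 without DMSO replicate 3.

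**Figure D5:**
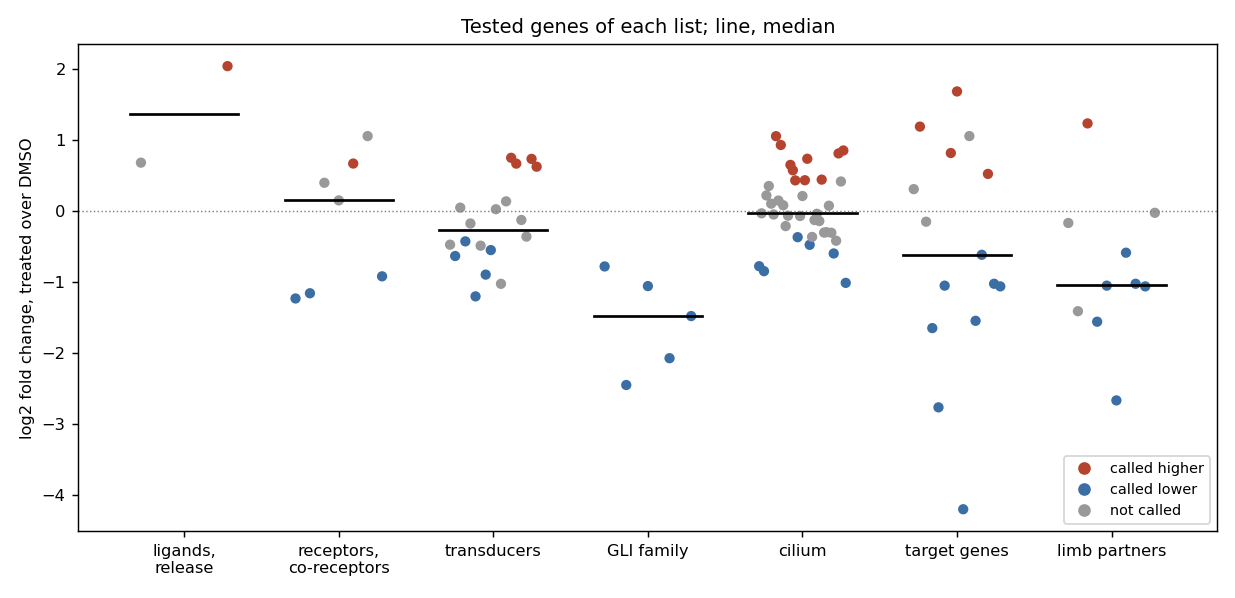
Log2 fold change of treated over DMSO (y axis) of every tested gene in 7 lists of the pathway, with the median as a line. Colours mark genes called higher, called lower or not called. The 5 tested genes of the GLI family list all lie below 0, with a median of −1.48, and the cilium genes spread around −0.04. ZIC1 and ZIC5 of the GLI family list reached the minimum for testing only through their DMSO libraries, so that pattern is partly fixed by the minimum.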

How the data were processed

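The authors deposited 1 table of raw read counts per gene model of the AmexG_v6_DD assembly, with summed exon lengths. Per the labels' protocols, 1000 ng of RNA entered a modified Smart-seq2 procedure with paired-end reads of 100 bp. Smart-seq2 libraries usually mark neither strand nor molecule, so copies of 1 molecule can be counted as separate reads. Intervals and floors take each read as independent. They cover counting error of reads only and may be too narrow. The submitters' processing notes name bcl2fastq 2.20.0, STAR 2.7.7a and featureCounts 2.0.1. How multi-mapping reads were counted is not given in the sources used here. Columns were matched to samples by their description labels. The 92 spike-in rows, all at 0, were left out.

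The test on counts was edgeR 4.0.16 under R 4.3.3 (filterByExpr, TMM scaling, robust quasi-likelihood F-test, two-sided, no covariates), and p-values were adjusted over all 17424 models tested. The fit was tested on simulated data. Alternatives used DESeq2 1.42.0, other scalings and filters, thinning, a length correction, summed models, and each library left out. SEs come from the F statistic. CPM and RPKM use TMM-scaled totals, and pooled ratios use raw totals. Replicate pairs differed by 5.63 to 68.8 in chi-square per degree of freedom, so none were the same library.

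The members, the 7 lists (139 symbols, 120 found) and the tests were chosen with earlier results of these data known. Named besides the 9 members are the 3 called genes with the largest change in each direction of each list, the 3 models nearest to each changed member by distance of centred log2 CPM (prior count 2), and genes given as untested or not passed. DISP1, EVC, GSK3B, ULK3, KIF7, TBX2, HOXD13, RAB34 and the undetected ligand and limb genes were named after their values were seen, and so was the pooled ratio of PTCH1. A tested gene of the receptor and target lists is counted in them but is not reported here by itself.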

Additional observations from a re-analysis of the deposited data

How the results depend on the processing

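Over 16 alternatives no value of the 5 tested Hedgehog genes changed direction. With library size only, the median shift of all log2 fold changes was −0.37, 2314 models were called higher and 7029 lower, and SUFU passed at −0.73. SUFU also passed without the low-count filter (−0.41) and after thinning (−0.40). GLI2 was lost with upper-quartile scaling (−0.70), DESeq2 (−0.76) and the length trend removed (−0.73). GAS1 passed with upper-quartile scaling (0.48), which made 1 Hedgehog gene higher. Leaving out 1 library at a time gave −1.47 to −0.70 for SMO, −0.47 to −0.21 for SUFU, −0.92 to −0.56 for GLI2, −2.52 to −2.38 for GLI3 and 0.32 to 0.54 for GAS1, with 0 to 1 Hedgehog genes higher and 1 to 4 lower. The causes were not tested. The ratio of GLI3 to GLI2 was lower in treated libraries with a larger added count and with each library left out. The direction could not change when a library was left out, because the groups lie on opposite sides of 0 on the log2 scale. No paired analysis was possible because the labels carry no replicate numbers shared between the groups. Depth limits SHH, GLI1, HHIP and PTCH1, for which only changes above the stated floors could have been seen.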
